A study of Mus musculus with 45 samples.

Results

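The 42 genes described here encode proteins that copy DNA and divide the cell, out of 35675 mouse genes in the deposited files. They were chosen by name, 24 as DNA replication (S phase) genes and 18 as mitosis genes, and the choice was made with earlier results of these data known. All 42 passed the filter on low counts and were tested. They were measured by bulk RNA-seq in 45 libraries, in 15 groups of 3, made from mouse cells that all carried the Pax7-nGFP transgene (a nuclear green fluorescent reporter of Pax7, the transcription factor that marks muscle stem cells) on a C57BL6 and DBA2 background. One group was untreated mouse embryonic fibroblasts (MEFs). In 10 groups the fibroblasts received doxycycline for 2, 4, 6, 8 or 10 days to express MyoD, the transcription factor that turns fibroblasts into muscle, either alone (labelled myotubes) or with F/R/C (labelled muscle fibers and progenitor cells). The labels give the mixture only by its letters, which in the published protocol stand for forskolin, the TGF-beta receptor inhibitor RepSox and a GSK3 inhibitor. The other groups were established induced myogenic progenitor cells (iMPCs) kept in F/R/C medium and labelled with 13 days of doxycycline and F/R/C, iMPCs sorted for the Pax7 reporter, bulk primary myoblasts from skeletal muscle, and sorted Pax7-reporter-positive myoblasts. No label says that replicates came from separate cultures or animals, so p-values measure only the spread between these libraries, which may be technical.

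In a dividing cell the MCM helicase is loaded at origins by Cdc6 and Cdt1, is switched on by Cdc45, the GINS complex and Mcm10, and opens the DNA for polymerase alpha and primase, the clamp PCNA and its loader. Cyclin E and the E2F factors turn these genes on at the entry into S phase, with E2f1 as an activator and E2f7 and E2f8 as repressors. Later the kinase Cdk1 with cyclins A and B, the Aurora and Polo kinases, the spindle checkpoint and motor proteins carry the cell through mitosis. Cells that fuse into myotubes leave the cell cycle, while progenitors and myoblasts keep dividing. RNA from a bulk culture mixes dividing and non-dividing cells, so fewer dividing cells and less of these RNAs per cell cannot be told apart.

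The libraries held 15.6 to 36.3 M estimated reads, with a median of 22.1 M, and the deepest were the bulk iMPCs at 33.2 to 36.3 M. Summed marker levels were in CPM (counts per M reads). Fibroblast markers summed to 20187 to 25301 CPM in MEFs. On day 10 they summed to 1447 to 5471 CPM with F/R/C and 14004 to 30529 CPM with MyoD alone, the group labelled myotubes. Fn1 was the largest part of the last sum. It averaged 10150 CPM in MEFs and, on day 10, 13933 CPM with MyoD alone and 583 CPM with F/R/C. Postn, Pdgfra, Pdgfrb, Lum and Dcn averaged more with F/R/C than with MyoD alone on day 10, and the other markers of the list less. Pdgfra, Lum and Dcn averaged 285, 83.0 and 182 CPM in MEFs and 21.3, 2.62 and 9.93 CPM with MyoD alone. Pax7 averaged 0.02 CPM in MEFs, 306 CPM in sorted iMPCs and 612 CPM in sorted myoblasts. Macrophage, endothelial and glial markers reached at most 11.2, 9.39 and 18.2 CPM in any library. The 6 sorted libraries had been quantified with another fragment length setting than the other 39, and cell sorting and that setting cannot be told apart. Reads of 17 members were divided with another gene in some library, and 16 are overlapped by a gene on the opposite strand, with no strand setting given in the sources used here.

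Promoter letters differed between both classes. RefSeq promoter windows (GRCm38.p6), from 250 bases before to 50 bases after the start, matched 34 of the 42 genes, 20 of replication and 14 of mitosis. An E2F motif (TTTCCCGC, TTTCGCGC, TTTGCCGC or TTTGGCGC, on either strand) stood in 40.0% of the replication windows and 7.14% of the mitosis windows, against 2.6% of the 27025 genes with a window. The CHR motif (TTTGAA or TTCGAA, on either strand), which is known to be bound by repressor complexes of the DREAM family, stood in 20.0% of the replication windows, 78.6% of the mitosis windows and 21.7% of all. CCAAT, the letters read by NF-Y, stood on either strand in 70.0%, 92.9% and 41.1%. CHR and CCAAT stood together in 78.6% of the mitosis windows against 8.61% of all genes. Matches are descriptions of letters, not of binding. The sequences below show an E2F type (Mcm6, Mcm5 and Pola1) and a CHR and CCAAT type (Ccnb2, Bub1b and Kif11). The last is E2f8, the member whose levels followed those of its class least. Each stretch lies upstream of annotated exons, runs 5′ to 3′ on the gene's strand, and has its motif letters in capitals, including overlapping matches in the first capital run of Mcm6 and Mcm5.
Mcm6 (helicase subunit, chr1:128359706-128359825, minus strand): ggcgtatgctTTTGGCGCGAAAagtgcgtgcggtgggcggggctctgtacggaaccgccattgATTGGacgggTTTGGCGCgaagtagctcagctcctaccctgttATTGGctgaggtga
Mcm5 (helicase subunit, chr8:75109346-75109501, plus strand): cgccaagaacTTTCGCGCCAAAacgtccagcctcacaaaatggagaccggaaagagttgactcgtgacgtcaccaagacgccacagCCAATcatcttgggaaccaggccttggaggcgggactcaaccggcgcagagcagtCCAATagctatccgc
Pola1 (polymerase alpha, chrX:93632178-93632303, minus strand): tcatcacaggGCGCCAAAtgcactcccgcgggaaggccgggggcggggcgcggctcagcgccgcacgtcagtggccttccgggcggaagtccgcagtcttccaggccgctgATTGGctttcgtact
Ccnb2 (cyclin B2, chr9:70421561-70421731, minus strand): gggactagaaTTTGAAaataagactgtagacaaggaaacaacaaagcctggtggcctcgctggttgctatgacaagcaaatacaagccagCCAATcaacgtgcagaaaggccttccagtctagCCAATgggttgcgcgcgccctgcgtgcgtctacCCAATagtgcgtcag
Bub1b (spindle checkpoint kinase BubR1, chr2:118598013-118598112, plus strand): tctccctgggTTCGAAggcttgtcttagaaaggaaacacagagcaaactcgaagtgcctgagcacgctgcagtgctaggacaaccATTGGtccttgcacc
Kif11 (spindle motor Eg5, chr19:37376327-37376378, plus strand): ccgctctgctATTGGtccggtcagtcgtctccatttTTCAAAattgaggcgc
E2f8 (chr7:48881601-48881718, minus strand): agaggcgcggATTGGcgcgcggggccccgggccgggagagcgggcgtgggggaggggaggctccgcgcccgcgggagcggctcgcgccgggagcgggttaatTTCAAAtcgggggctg
E2f8 thus carries CCAAT and CHR letters, and its window held none of the 4 E2F motifs searched, which says only that these letters are not in this window.

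Both classes were lowest with MyoD alone and highest in sorted iMPCs. A class level is the mean over its genes of log2 CPM, computed in each library. In MEFs the replication level was 5.17, 4.39 and 4.24 in replicates 1, 2 and 3, and the mitosis level was 6.25, 4.95 and 4.80. Replicate 1 of the MEFs was thus the highest in both classes. After 4 days of MyoD alone the replication level was 3.77, 3.02 and 3.80 and the mitosis level 3.79, 2.76 and 4.15, below every MEF library. With F/R/C on day 4 the replication level was 4.23, 4.28 and 4.58 and the mitosis level 4.54, 4.52 and 5.09. In sorted iMPCs the levels were 6.83, 6.71 and 6.93 for replication and 7.05, 7.01 and 7.36 for mitosis, above every other library of the series. Bulk iMPCs had 4.58, 5.18 and 5.18 for replication and 5.52, 6.48 and 6.08 for mitosis, and overlapped with bulk myoblasts at 4.65, 4.93 and 5.74 and at 5.18, 5.67 and 6.37. Sorted myoblasts had 5.60, 5.02 and 4.14 for replication and 6.37, 6.06 and 5.31 for mitosis, with replicate 3 the lowest in both.

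**Figure D1:**
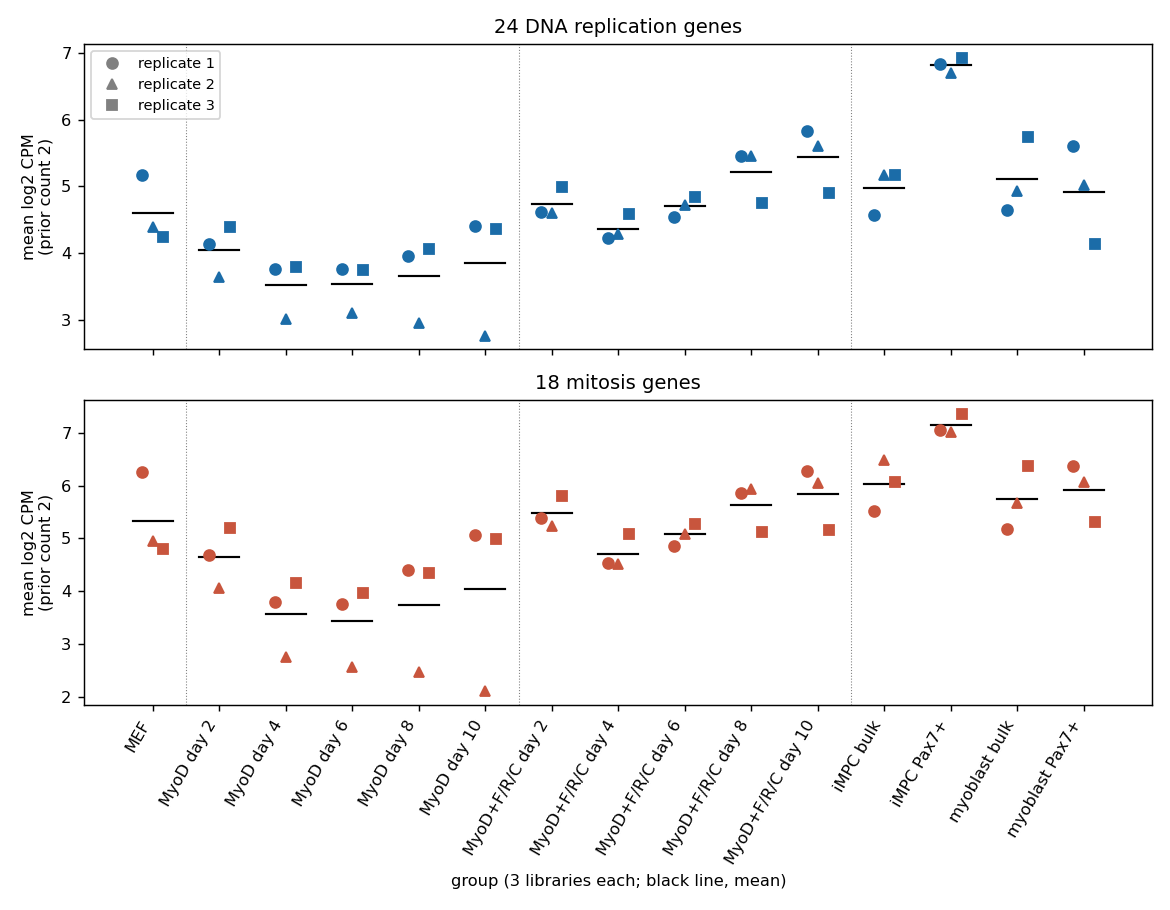
Class levels in each of the 45 libraries, as the mean log2 CPM of 24 replication genes (upper panel) and 18 mitosis genes (lower panel). Symbols mark replicate numbers and black lines group means; sorted iMPCs lie highest in both panels, and replicate 2 of MyoD alone lies lowest from day 4 to day 10.

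Over the course, the class means were lowest on day 4 or day 6 in both treatments. The group mean of the replication level with MyoD alone was 4.06 ± 0.38 on day 2, 3.53 ± 0.44 on day 4, 3.54 ± 0.38 on day 6, 3.66 ± 0.61 on day 8 and 3.85 ± 0.93 on day 10 (SD, n = 3 each). Cells with F/R/C had 4.74 ± 0.22, 4.36 ± 0.19, 4.70 ± 0.15, 5.22 ± 0.41 and 5.44 ± 0.49 on the same days. The mitosis level with MyoD alone was 4.65 ± 0.56, 3.57 ± 0.72, 3.44 ± 0.75, 3.74 ± 1.10 and 4.05 ± 1.68 on the same days. With F/R/C it was 5.47 ± 0.29, 4.71 ± 0.32, 5.08 ± 0.21, 5.64 ± 0.45 and 5.83 ± 0.59. The spread between replicates on day 10 of MyoD alone was thus the widest of the course, and the same-day means of both treatments were more than 1 SD of either group apart in both classes on each of the 5 days.

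The members differed widely in level. Per gene length, as deposited TPM (transcripts per M transcripts) and averaged over 45 libraries, Pcna, the sliding clamp, had the highest mean at 114 TPM. Next to it among replication genes stood Rrm2, a subunit of ribonucleotide reductase, at 85.7 TPM and Ccne1, cyclin E1, at 77.5 TPM. Cdk1 led the mitosis genes at 84.1 TPM, followed by Top2a, the topoisomerase that untangles chromosomes, at 77.7 TPM. The lowest means were those of E2f7 at 6.32 TPM, Cdc6 at 7.20 TPM and Gins1 at 7.55 TPM. Mean CPM was highest in sorted iMPCs for 23 of 24 replication genes and 18 of 18 mitosis genes, with E2f8 as the exception. It was lowest with MyoD alone between day 4 and day 8 for 22 of 24 and 18 of 18 genes, with E2f1 (lowest in bulk iMPCs) and E2f8 (lowest in MEFs) as the exceptions. For E2f1 the order of the top groups turned with the unit, since its mean TPM was 41.3 ± 7.45 in MEFs and 38.1 ± 3.04 in sorted iMPCs (SD, n = 3 each). The TPM of these groups were made with different fragment length settings.

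**Figure D2:**
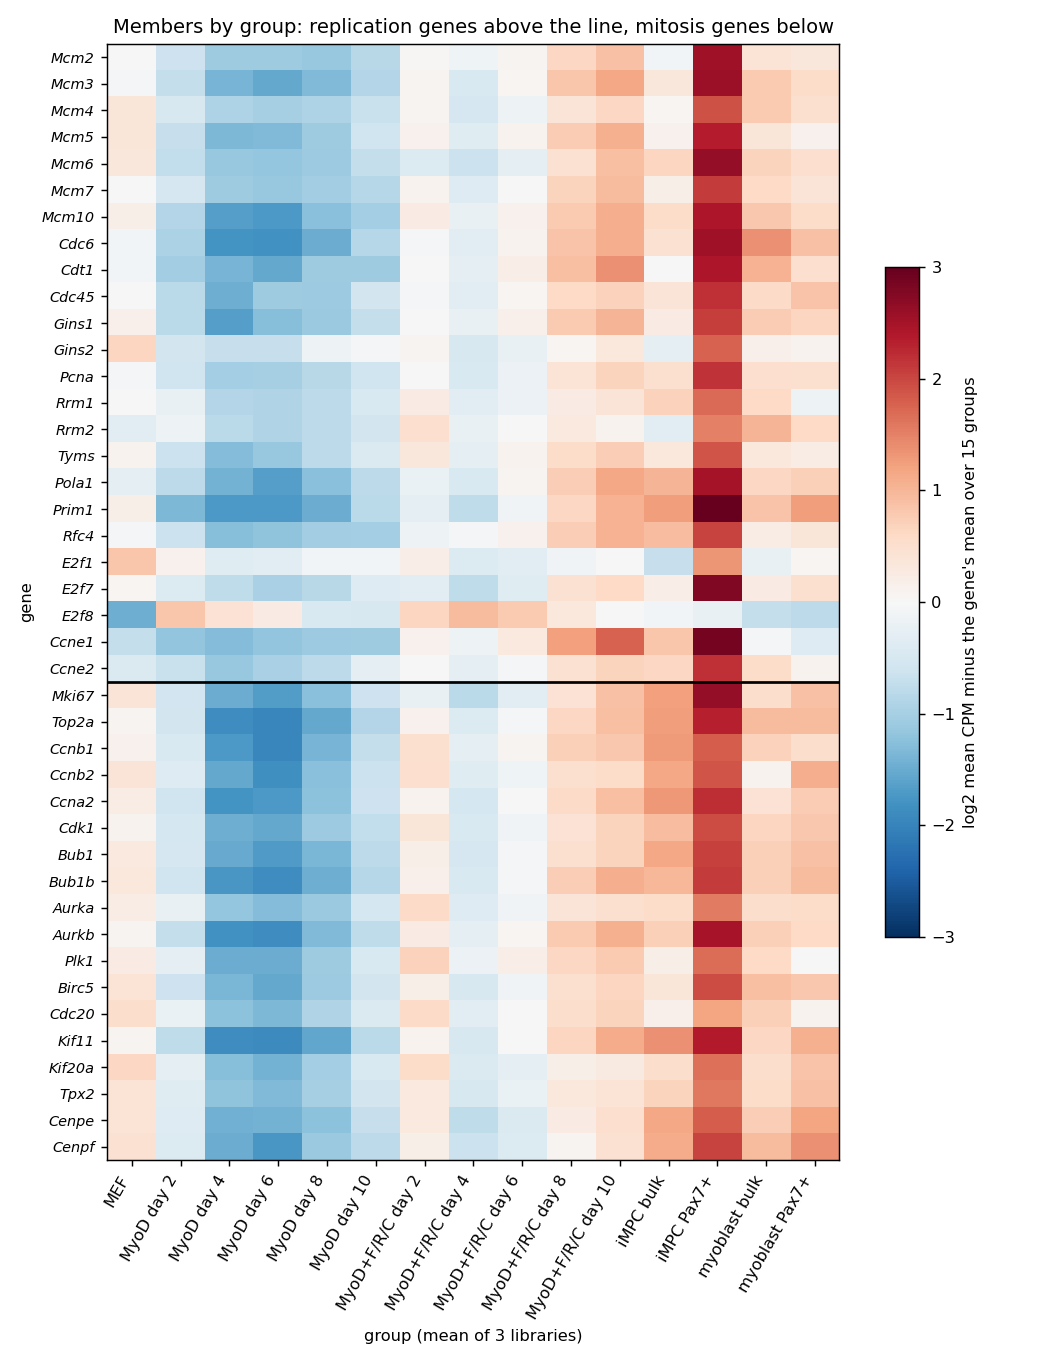
Group mean of each of the 42 genes as log2 mean CPM minus the gene's own mean over 15 groups (colour, from -3 blue to 3 red), with replication genes above the black line and mitosis genes below. The column of sorted iMPCs is red for all genes but E2f8, whose highest values lie in the first days of doxycycline.

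Mitosis genes moved together almost as 1 profile, while the replication class held outliers. Across the 45 libraries, Pearson's r of a gene's log2 CPM with the mean of the other genes of its class ran from 0.94 for Cdc20, the activator of the anaphase-promoting complex, to 0.99 for Cdk1. It exceeded 0.9 for 18 of 18 mitosis genes and 19 of 24 replication genes. The lowest replication genes were E2f8 at -0.20, E2f1 at 0.59, Gins2, a GINS subunit, at 0.84 and Rrm2 at 0.88. The levels of both classes had an r of 0.95 with each other. These r values describe the libraries, which share groups and depth differences, and carry no test.

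From MEFs to day 2 of MyoD alone, the median replication gene changed by -0.68 on the log2 scale and the median mitosis gene by -0.80, against 0 for all genes tested. Of the replication genes, 3 fell and 1 rose under edgeR's quasi-likelihood test, where a call needed a p under 0.05 after Benjamini-Hochberg adjustment over all 17325 genes tested and a log2 fold change of 1 or more in size. Of all genes tested, 10.1% were called lower and 12.3% higher, so 3 and 1 of 24 replication genes were shares near or below those of all genes. Prim1, the catalytic primase subunit, was at 18.0, 5.76 and 6.72 CPM in MEFs and 3.99, 2.58 and 4.09 CPM on day 2, a difference of -1.52 on the log2 scale (SE 0.50, adjusted p = 0.018). Its groups did not overlap, but MEF replicate 1 stood far above the other MEF libraries. Gins2 and Mcm6 also fell, by 1.18 and 1.07 on the log2 scale. E2f8 rose by 2.30 (SE 0.24, adjusted p = 8.1e-09). No mitosis gene was called by edgeR, with 1 at an unadjusted p under 0.05, and none by DESeq2. Without MEF replicate 1 or without replicate 2 of day 2, no replication gene was called lower and 1 was called higher. Without MEF replicate 2 or replicate 1 of day 2, or without the filter on low counts, 1 was called lower and 1 higher. Without MEF replicate 3, 1 mitosis gene was called.

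By day 10 of MyoD alone, 2 replication genes were below MEFs, Mcm4 (-1.04, SE 0.39, adjusted p = 0.041) and Mcm6 (-1.06, SE 0.41, adjusted p = 0.047), both helicase subunits. Neither passed without the filter on low counts (adjusted p = 0.067 and 0.075) or in a fit of only the groups compared (0.16 and 0.14). Of all genes tested 4.64% were called lower. No mitosis gene was called by edgeR, 5 had an unadjusted p under 0.05, and DESeq2 called 2, although the median mitosis gene was at a log2 fold change of -0.96. The number of replication genes called went to 0 without MEF replicate 1 or day 10 replicate 2, to 1 without MEF replicate 2, to 6 without MEF replicate 3 or day 10 replicate 3, and to 4 without day 10 replicate 1. The number of mitosis genes called was 2 without MEF replicate 3 and 1 without MEF replicate 2 or without day 10 replicate 1 or replicate 3.

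Within MyoD alone, replicate 2 stood apart, and the mitosis genes showed it most. This difference was known when the genes were chosen and is given as a description. Of the 18 mitosis genes, 18 had their lowest CPM of the group in replicate 2 on each of the 5 days. For the 24 replication genes the numbers were 21, 23, 22, 23 and 23 on days 2, 4, 6, 8 and 10, while replicate 2 held the lowest value of 31.7% to 37.8% of all genes tested. On day 10, Top2a was at 102, 9.36 and 89.5 CPM in replicates 1, 2 and 3 of MyoD alone. Cdk1 was at 37.5, 5.35 and 37.6 CPM, and Mki67, the source of the Ki-67 antigen of cycling cells, at 88.4, 7.38 and 71.8 CPM. Pcna was at 54.5, 28.8 and 56.0 CPM in the same libraries. Replicate 2 thus held far less of each, and the gap was narrower for the clamp than for the mitosis genes. Over all members on day 10, replicate 2 had a median of 13.2% of the mean of replicates 1 and 3 for mitosis genes (from 7.12% to 26.7%) and 35.6% for replication genes (from 11.3% to 119%, the highest being E2f8). In the same-numbered libraries with F/R/C the medians were 115% and 112%.

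The balance between both classes shifted in that replicate too. The replication level minus the mitosis level lay from 0.26 to 0.66 in replicate 2 of MyoD alone on days 4 to 10, above 0 in 4 of 4 libraries. In the other 41 libraries it lay from -1.30 to 0.01, above 0 in 1. Other lists moved with replicate 2. On day 10, differentiated muscle markers summed to 16484, 36213 and 10249 CPM in replicates 1, 2 and 3 of MyoD alone, and fibroblast markers to 30529, 14004 and 20730 CPM. On days 4, 6 and 8 replicate 2 likewise had the most muscle marker RNA (45537, 40190 and 35756 CPM) and the least fibroblast marker RNA (12634, 13083 and 16680 CPM) of its group. With F/R/C, replicate 2 also had the least fibroblast marker RNA of its group on every day, at 1447 CPM on day 10. It had the most muscle marker RNA there on days 2 and 4, but not on days 6, 8 and 10. The part of these markers in the level of the members was not tested.

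**Figure D3:**
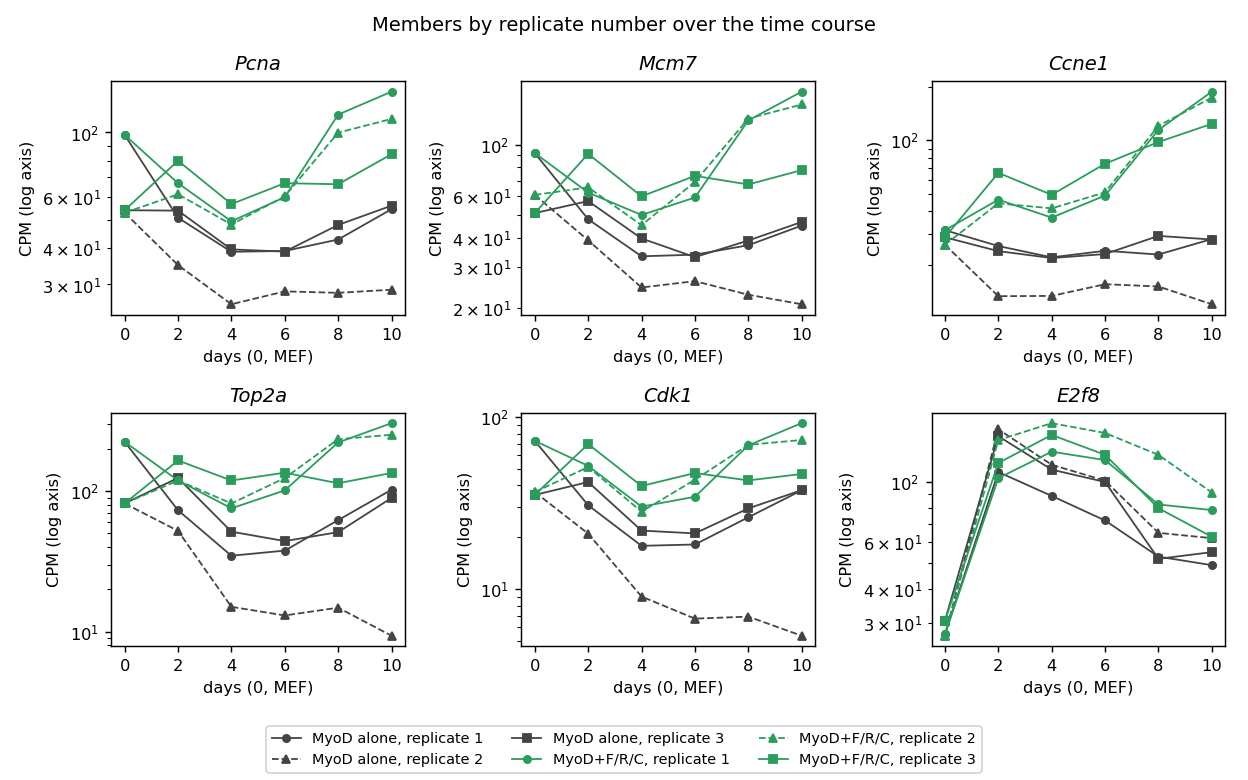
CPM (log axis) of 6 members over the course, 1 line per replicate number, with MyoD alone in grey, MyoD with F/R/C in green and MEFs at day 0; lines join libraries with the same number, which need not be the same culture. Replicate 2 of MyoD alone (grey triangles) ends lowest for the first 5 genes (Top2a at 9.36 CPM), while E2f8 peaks on day 2 or 4 in all lines.

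With F/R/C the median gene of both classes was higher than with MyoD alone on every day, and the number of genes called grew up to day 8. The number of replication genes called higher was 1, 5, 13, 19 and 17 of 24 on days 2, 4, 6, 8 and 10, and of mitosis genes 0, 1, 13, 14 and 10 of 18, and none was called lower. The share of all genes tested called higher was 2.13%, 6.58%, 8.23%, 9.2% and 9.91% on those days. The median log2 fold change over replication genes was 0.65, 0.93, 1.14, 1.69 and 1.65, and over mitosis genes 0.77, 1.00, 1.55, 1.70 and 1.32. The median over all genes tested lay between -0.067 and -0.0015. On day 2 edgeR gave 0 mitosis genes at an unadjusted p under 0.05 and DESeq2 called 0. Same-numbered libraries of both treatments deviated together on days 2, 4 and 6, and with the replicate number as a block 4 mitosis genes were called on day 4. A fit of only the groups compared gave 5, 9, 14, 18 and 10 replication genes and 0, 9, 17, 11 and 1 mitosis genes on the 5 days. On day 4 DESeq2 called 8 and 5, and without the filter on low counts 2 and 0 were called.

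**Figure D4:**
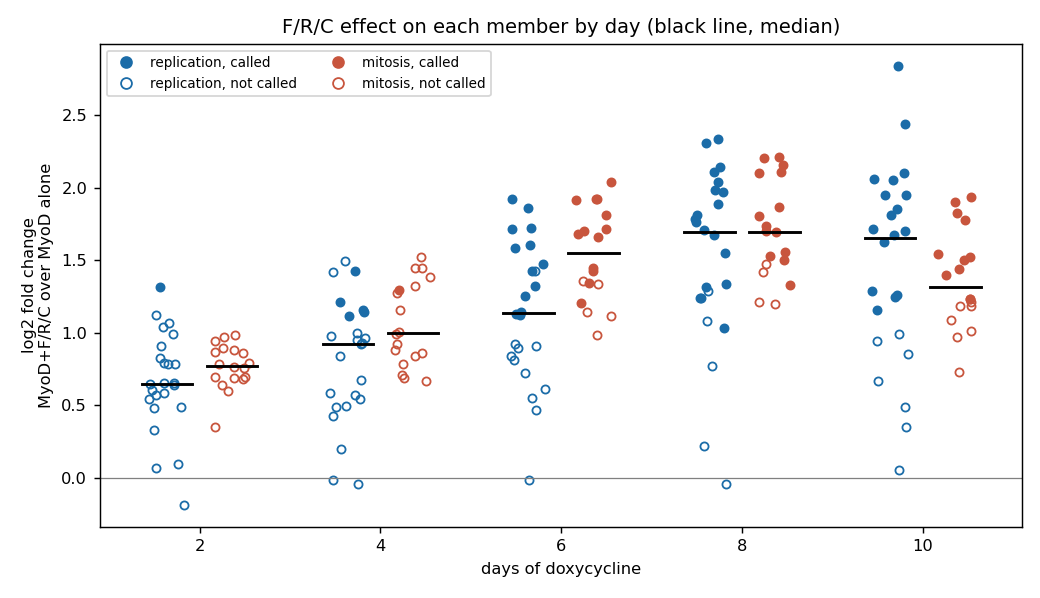
Log2 fold change of MyoD with F/R/C over MyoD alone for each member on each day (x axis, days of doxycycline), with replication genes in blue and mitosis genes in red; filled points passed the test and black lines are medians. The medians lie above 0 on each day, and E2f1 and E2f8 are among the lowest replication points.

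The counts on single days rested on few libraries. Without replicate 2 of MyoD alone on any day, replication calls on days 2, 4, 6, 8 and 10 were 1, 1, 10, 18 and 13, and mitosis calls were 0, 0, 11, 12 and 4. With 1 library left out at a time, the single call of day 2 was lost without replicate 2 of MyoD alone or replicate 3 with F/R/C. On day 4 replication calls were 0 and 2 without replicates 2 and 3 of MyoD alone and 2 and 1 without replicates 2 and 3 with F/R/C. The mitosis call of that day was lost without any library but replicate 3 of MyoD alone. On day 6 replication calls were 4 without replicate 2 of MyoD alone and 6 without replicate 3 with F/R/C. Mitosis calls on day 6 were 5 and 1 without replicates 1 and 2 of MyoD alone and 6 and 3 without replicates 2 and 3 with F/R/C. On day 8 mitosis calls were 4 without replicate 2 of MyoD alone and 9 without replicate 2 with F/R/C. On day 10 mitosis calls were 2 without replicate 2 of MyoD alone, 2 and 6 without replicates 1 and 2 with F/R/C, and 17 without replicate 3 with F/R/C. On day 8 and on day 10, replicate 3 with F/R/C had the lowest CPM of its group in 24 of 24 replication and 18 of 18 mitosis genes. It held the lowest value of 33.4% and 32.7% of all genes tested on those days.

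Set against each other by replicate number, the libraries with F/R/C had the higher class level in 15 of 15 pairs for both classes. All same-numbered libraries deviated together from their group means on days 2, 4 and 6. On days 8 and 10 pairs 1 and 2 did so too (r of 0.23 to 0.26), while r in pair 3 was 0.079 and 0.062. The same numbers recur over the days, so the 15 pairs need not be independent. The gap on day 10 was 1.43, 2.83 and 0.53 for replication and 1.22, 3.94 and 0.18 for mitosis in pairs 1, 2 and 3. Pair 2 thus had the widest gap and pair 3 the narrowest. On day 6 the gaps were 0.77, 1.63 and 1.10 for replication and 1.11, 2.51 and 1.31 for mitosis. Of the genes, 18 of 24 replication and 13 of 18 mitosis genes were higher with F/R/C in all 15 pairs. The share of all genes tested that did so was not counted. The fewest pairs were 8 for E2f1 and 10 for E2f7, and no mitosis gene had fewer than 14.

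Averaged over the 5 days, 14 of 24 replication genes and 16 of 18 mitosis genes were called higher with F/R/C, against 11.6% of all genes tested. This test took the libraries of different days as independent, while replicate 2 of MyoD alone was low in most members on every day. If same-numbered libraries are related across days, the SE and p-values of all means over days may be too small. Without a minimum fold, 22 replication genes passed. By role, 4 of 6 MCM helicase subunits were called (median 1.21), 5 of 6 licensing and activation factors (median 1.56), 4 of 7 genes of DNA synthesis and nucleotide supply (median 1.15), and 1 of 5 E2F and cyclin E genes (median 0.59). All 4 mitotic cyclin and Cdk1 genes were called (median 1.37), all 7 kinase, checkpoint and anaphase genes (median 1.33), 3 of 5 spindle and kinetochore genes (median 1.01), and both Mki67 and Top2a. Without replicate 2 of MyoD alone on any day, 13 replication and 9 mitosis genes were called.

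Of the replication genes with the highest TPM of their role, Mcm7, Pcna and Ccne1 showed the parting by day 10, and Gins2 did not. Mcm7 was at 45.03, 20.8 and 46.7 CPM with MyoD alone and 168, 148 and 77.7 CPM with F/R/C. The groups did not overlap, and replicate 3 was the lowest with F/R/C. Mcm7 was higher by 1.81 on the log2 scale (SE 0.36, adjusted p = 0.00021). Pcna was at 138, 111 and 84.2 CPM with F/R/C, above each library of MyoD alone, higher by 1.26 (SE 0.31, adjusted p = 0.0015). Its mean over days, 0.89, was under the minimum fold. Gins2 did not follow, at 14.7, 4.41 and 15.9 CPM with MyoD alone and 20.2, 14.6 and 9.96 CPM with F/R/C. Its groups overlapped, with a difference of 0.35 on the log2 scale (SE 0.44, adjusted p = 0.55). Of the licensing and activation factors, its role, 5 of 6 were called on day 10 (median 1.83). Genes on the opposite strand overlap Gins2 (Gse1 and Gm20388) and Mcm7 (Cops6 and Ap4m1), so the levels of both are less certain.

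Ccne1 had the largest mean over days of all members and E2f1 the smallest. On day 10 Ccne1 was at 28.0, 12.0 and 27.8 CPM with MyoD alone and 188, 174 and 124 CPM with F/R/C. The groups lay far apart, with all libraries of F/R/C above all of MyoD alone. The difference on the log2 scale was 2.84 (SE 0.34, adjusted p = 3.7e-07) on day 10 and 1.82 (SE 0.15, adjusted p = 3.5e-12) as the mean over days. With MyoD alone Ccne1 stayed between 12.0 and 29.1 CPM in all 15 libraries, near or below its MEF values of 31.3, 26.0 and 28.6 CPM. E2f1 was at 33.1, 20.2 and 41.7 CPM with MyoD alone on day 10 and 35.0, 33.8 and 29.9 CPM with F/R/C, and the groups overlapped. Its mean over days was 0.00 (SE 0.11, adjusted p = 0.98).

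Of the mitosis genes with the highest TPM of their role, Top2a and Cdk1 were called on day 10, and Birc5 and Tpx2 were not. Top2a was at 304, 252 and 135 CPM with F/R/C on day 10, all above MyoD alone, higher by 1.78 (SE 0.61, adjusted p = 0.019). Cdk1 was at 92.1, 73.6 and 46.7 CPM with F/R/C, again without overlap, higher by 1.40 (SE 0.49, adjusted p = 0.023). In a fit of only the groups compared neither passed (adjusted p = 0.13 for Top2a and 0.15 for Cdk1). Replicate 3 with F/R/C came close to replicates 1 and 3 of MyoD alone in both genes. Birc5, survivin of the chromosomal passenger complex, was at 18.9, 5.10 and 24.8 CPM with MyoD alone and 51.8, 39.7 and 19.7 CPM with F/R/C. Tpx2, a spindle assembly factor, was at 60.4, 8.27 and 49.5 CPM and 97.2, 82.4 and 53.0 CPM. In both genes replicate 3 with F/R/C fell inside the range of MyoD alone, and neither passed on day 10 (adjusted p = 0.057 and 0.097). As means over days, Birc5 was called (1.17, SE 0.23, adjusted p = 4.0e-05) and Tpx2 at 0.95 was under the minimum fold.

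The F/R/C effect was larger on day 10 than on day 2 for 2 replication genes, Rfc4, a subunit of the clamp loader, and Ccne1, where 2.24% of all genes tested were called in that direction. Rfc4 was at 5.25, 5.10 and 6.65 CPM with MyoD alone on day 2 and 6.88, 7.74 and 9.21 CPM with F/R/C. On day 10 it was at 5.65, 2.28 and 5.33 CPM and 20.5, 18.3 and 16.5 CPM. The gap had thus widened in every replicate number, and the effect on day 10 exceeded that on day 2 by 1.57 (SE 0.46, adjusted p = 0.030). For Ccne1 it was 1.52 (SE 0.45, adjusted p = 0.032), with an adjusted p of 0.059 in a fit of only the groups compared. Of the mitosis genes edgeR called 0, with 0 at an unadjusted p under 0.05, and DESeq2 called 0. Both replication calls were lost when replicate 3 of day 2 or replicate 2 of day 10 of MyoD alone was left out, or replicate 1 of day 2, replicate 1 of day 10 or replicate 2 of day 10 with F/R/C. Only 1 was called without replicate 1 or 2 of MyoD alone on day 2 or replicate 2 with F/R/C on day 2, and 1 without replicate 2 of MyoD alone on any day.

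Compared with MEFs, no mitosis gene passed the test with F/R/C on day 2 or day 10, and some replication genes were higher. On day 2, the median log2 fold change was 0.03 for replication and -0.03 for mitosis. Only E2f8 was called (2.11, SE 0.24), where 11.5% of all genes were called higher, and no mitosis gene had an unadjusted p under 0.05 in edgeR or was called by DESeq2. On day 10, 7 replication genes were higher than in MEFs, where 19% of all genes tested were called higher. They were Ccne1 (2.50, SE 0.33, adjusted p = 2.7e-07), E2f8 (1.46), Pola1 (1.46), Cdt1, the licensing factor (1.45), Mcm3 (1.22), Ccne2, cyclin E2 (1.12), and Rfc4 (1.08). At 7 of 24 genes the share is not far from the background. No mitosis gene was called by edgeR, with 0 at an unadjusted p under 0.05, and none by DESeq2, with a median of 0.43. Replication calls on day 10 were 16 without MEF replicate 1, 15 without replicate 3 and 4 without replicate 1 of F/R/C. Mitosis calls were 3 without MEF replicate 1 and 1 without replicate 3 with F/R/C.

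Against cells on day 10 with F/R/C, 1 of 24 replication genes, Cdt1, was called lower in established bulk iMPCs, no larger a share than among all genes. With F/R/C on day 10, Cdt1 was at 62.4, 49.8 and 36.4 CPM, and it was at 11.6, 23.9 and 21.5 CPM in bulk iMPCs. The groups did not overlap, and it was the single member called, at -1.38 (SE 0.40, adjusted p = 0.014), where 6.24% of all genes were called lower. Against bulk myoblasts, Cdt1 at 28.4, 16.9 and 71.8 CPM and Rrm2 at 140, 144 and 273 CPM were called higher in myoblasts (iMPCs minus myoblasts -1.04 and -1.37), where 8.7% of all genes were called lower in iMPCs. At 2 of 24 replication genes this share, too, is no larger than among all genes. Rrm2 in bulk iMPCs was at 56.6, 82.6 and 76.7 CPM, without overlap, while the Cdt1 groups overlapped. In neither comparison was a mitosis gene called by edgeR, with 0 at an unadjusted p under 0.05 in both, or by DESeq2. Against day 10, replication calls went to 0 without iMPC replicate 1 or day 10 replicate 1, to 2 without iMPC replicate 3, and to 4 without day 10 replicate 3. Against myoblasts, no replication gene was called lower and 1 was called higher without myoblast replicate 3 or iMPC replicate 1, and 1 was called lower without iMPC replicate 3. The Cdt1 call against myoblasts was lost without the filter, with the replicate block and in the fit of only the groups compared (adjusted p = 0.082, 0.055 and 0.26).

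Sorted Pax7-positive iMPCs had the highest class levels of the series, and the median difference was larger for replication genes than for mitosis genes, as a description without a test between the classes. Against bulk iMPCs, 23 of 24 replication genes and 4 of 18 mitosis genes were called higher, where 9.88% of all genes tested were. The median log2 fold change was 1.87 for replication and 1.02 for mitosis, against -0.13 for all genes tested. Against sorted Pax7-positive myoblasts, 22 of 24 and 7 of 18 were called higher, where 12.4% of all genes were, with medians of 1.73 and 1.16 against -0.07. Values of sorted iMPCs lay above all 3 bulk iMPC libraries for 23 of 24 replication and 16 of 18 mitosis genes, where 24% of all genes did, and above all sorted myoblast libraries for 22 and 18, where 22.9% of all genes did. Both comparisons share the 3 sorted iMPC libraries.

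Named members show the 2 classes side by side. Mcm2 was at 353, 302 and 329 CPM in sorted iMPCs, 37.0, 57.1 and 64.4 CPM in bulk iMPCs and 105, 67.3 and 40.0 CPM in sorted myoblasts. It was higher by 2.63 (SE 0.37, adjusted p = 1.5e-06) and 2.21 (SE 0.37, adjusted p = 1.1e-05). Ccne1 was at 318, 316 and 414 CPM against 69.3, 48.2 and 134 CPM and 46.8, 32.5 and 28.7 CPM. The distance to the myoblasts, 3.28 (SE 0.34, adjusted p = 6.6e-09), was larger than for any other member in either comparison. E2f1 was at 80.6, 75.0 and 93.8 CPM, 19.8, 19.6 and 22.9 CPM and 43.6, 38.4 and 22.2 CPM, and was called in both comparisons (2.00 and 1.26). Ccnb1, cyclin B1, was at 152, 125 and 188 CPM in sorted iMPCs and 62.4, 167 and 94.2 CPM in bulk iMPCs, where replicate 2 overlapped (0.53, SE 0.55, adjusted p = 0.45). Aurkb, the kinase of the passenger complex, was called in both comparisons (1.76, SE 0.64, adjusted p = 0.023, and 1.87, SE 0.64, adjusted p = 0.017).

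By role, against bulk iMPCs all 6 MCM subunits, all 6 licensing and activation factors and all 7 synthesis genes were called, and 0 of the 4 mitotic cyclin and Cdk1 genes and 0 of the 5 spindle and kinetochore genes. The 4 mitosis genes called were Bub1b, Aurkb, Plk1, the Polo kinase, and Birc5. The replication level minus the mitosis level was -0.44 to -0.21 in sorted iMPCs, -1.30 to -0.90 in bulk iMPCs and -1.17 to -0.77 in sorted myoblasts, with no overlap between the first group and the others. Differentiated muscle markers summed to 1414 to 1949 CPM in sorted iMPCs, 22483 to 29268 CPM in bulk iMPCs and 4426 to 15563 CPM in sorted myoblasts, and their part in the result was not tested. Mitosis calls against bulk iMPCs were 0, 2 and 1 without bulk iMPC replicate 1, bulk iMPC replicate 3 and sorted iMPC replicate 3. Against sorted myoblasts they were 3 and 0 without myoblast replicates 2 and 3, and 4 and 2 without iMPC replicates 2 and 3. Against sorted myoblasts they were 3 without the filter, 12 with DESeq2 and 11 in a fit of only the groups compared, and against bulk iMPCs 7 and 10 in the latter fits. Replication calls stayed within 1.5 times in both comparisons when any single library was left out.

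**Figure D5:**
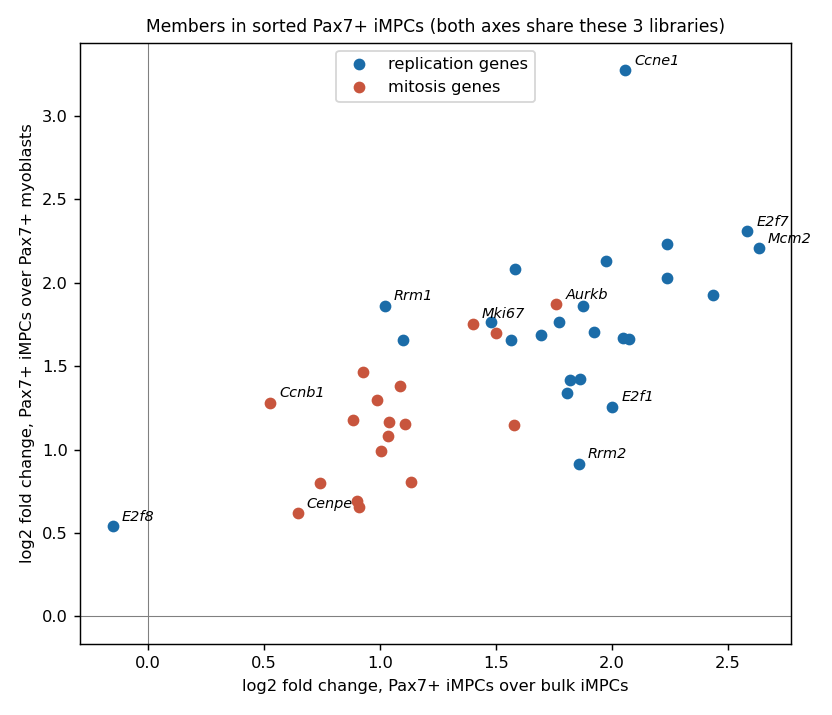
Log2 fold change of each member in sorted iMPCs over bulk iMPCs (x axis) and over sorted myoblasts (y axis); both axes use the same 3 sorted iMPC libraries, so the spread along the diagonal is partly shared. The classes overlap, the medians of replication genes (blue) are 1.87 and 1.73 and those of mitosis genes (red) 1.02 and 1.16, with Ccne1 at 3.28 on the y axis, and E2f8 lies near 0 on the x axis.

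No member passed the test between sorted and bulk myoblasts. Under edgeR 0 of 24 replication and 0 of 18 mitosis genes were called, where 6.23% of all genes were in either direction, with 1 and 0 at an unadjusted p under 0.05, and DESeq2 called 0 and 0. The median log2 fold change was -0.14 for replication and 0.19 for mitosis. The libraries of each group were spread widely. Top2a was at 110, 211 and 388 CPM in bulk myoblasts and 321, 251 and 141 CPM in sorted ones. Beside this spread, differentiated muscle markers summed to 33394, 19271 and 1165 CPM in bulk and 4426, 5537 and 15563 CPM in sorted replicates 1, 2 and 3. In both groups the library with the least muscle marker RNA had the most Top2a, and their part in the result was not tested.

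E2f8, a repressor of S-phase genes, went its own way, and was singled out after its values were seen. Its level was 27.2, 26.8 and 30.5 CPM in MEFs and 109, 157 and 148 CPM after 2 days of MyoD alone, when most other members were lower than in MEFs. With F/R/C it was at 104, 143 and 118 CPM on day 2 and 130, 166 and 150 CPM on day 4. All doxycycline libraries thus lay above the MEFs on these days. It declined to 49.1, 61.9 and 54.9 CPM on day 10 of MyoD alone and 78.7, 91.5 and 62.6 CPM with F/R/C. The mean F/R/C effect over days was 0.42 (SE 0.10, adjusted p = 0.00063), under the minimum fold. In sorted iMPCs, where all other members peaked in CPM, it was at 70.1, 54.9 and 72.7 CPM, within the range of bulk iMPCs at 84.9, 59.1 and 75.9 CPM except for replicate 2. In MyoD alone replicate 2 was its highest library on each day, at 157, 116, 101, 64.8 and 61.9 CPM on days 2 to 10. Transcript ENSMUST00000058745 held 38.6% ± 5.26 of its reads in MEFs, 51.3% ± 9.04 on day 2 of MyoD alone and 24.6% ± 2.08 in sorted iMPCs (SD, n = 3). Its locus is overlapped on the opposite strand by Gm2788, and its reads were partly divided with another gene, so its level is less certain than that of Ccne1 or Cdk1.

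Other genes of the same pathways, from lists of 38 replication, 44 mitosis and 18 regulator genes that share no member with the 42, were counted in the same way. All 100 were tested. Averaged over days, 11.6% of all genes tested were called higher with F/R/C. Among the other replication genes 21 of 38 were called higher (median 1.07). They were led by Asf1b, a histone chaperone (1.97), Cdc7, the kinase that fires origins (1.42), and Chek1, the replication checkpoint kinase (1.49). So were 31 of 44 other mitosis genes (median 1.28), led by the condensin subunit Ncapd2 (1.64), the spindle motor Kif15 (1.96) and the kinetochore gene Spc25 (1.34). Of the 18 regulators 4 were called higher, with a median of 0.38. They included E2f2, an activator E2F (3.92, SE 0.27, adjusted p = 1.9e-13), Skp2, which targets the inhibitor p27 for breakdown (1.51), and Fbxo5, the Emi1 inhibitor of the anaphase-promoting complex (1.36). E2f2 averaged 1.88 CPM in MEFs and, on day 10, 2.21 CPM with MyoD alone and 113 CPM with F/R/C. The fold change of E2f2 was larger than that of any of the 42 members, E2f1 included. The F/R/C effect on E2f2 and Skp2 was also larger on day 10 than on day 2, by 4.51 (SE 0.81, adjusted p = 0.0015) and 2.20 (SE 0.43, adjusted p = 0.0039). From MEFs to day 2 of MyoD alone, 10 of 38 other replication genes fell, led by Timeless, a fork protection protein (-1.92), while E2f2 (3.28) and Cdc25b, a mitotic phosphatase (2.43), rose. Of all genes tested in that comparison, 10.1% were called lower and 12.3% higher. In sorted iMPCs against bulk iMPCs 35 of 38 other replication genes were called higher and 15 of 44 other mitosis genes, with medians of 1.53 and 1.04. There 9.88% of all genes tested were called higher.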

How the data were processed

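The authors' deposited files give estimated counts and TPM per transcript in the layout of kallisto, per the file headers. The submitters' processing notes name bcl2fastq 2.19, Trimmomatic 0.36, kallisto 0.44, edgeR 3.28 and GRCm38.p6, and strand and counting settings are not given in the sources used here. Libraries were stranded, poly-A selected and read from a single end, per the labels' protocols. Of 121843 transcripts, 121104 matched GENCODE M21 and held 99.4% to 99.8% of the reads. Estimated counts were summed per gene and rounded. The TPM deposited by the authors keep no depth. They served to compare levels between genes, for the group means of E2f1 and as an alternative for class levels. All 45 libraries were fitted in 1 edgeR 4.0.16 model (R 4.3.3; TMM, filterByExpr, glmQLFit, glmQLFTest) with a coefficient per group, no replicate block and 30 residual degrees of freedom, and p-values were adjusted over 17325 genes. Class levels used a prior count of 2. The test was checked on simulated data. The numbers were taken to pair libraries of both treatments on days 2, 4 and 6, where all same-numbered libraries deviated together (r of 0.22 to 0.38). On days 8 and 10 r was 0.23 to 0.26 in replicates 1 and 2 and 0.079 and 0.062 in replicate 3. Those days and the other comparisons were not taken as paired.

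The members, lists and rules were chosen with earlier results of these data known. Every member may be named. Values per library are given for the gene of each role with the highest TPM, and for the largest and smallest mean F/R/C effect. Library values of further members were chosen after they were seen. Of the other lists, up to 3 called genes with the smallest adjusted p are named per list and direction. Alternatives were DESeq2 1.42.0, RLE size factors, no filter, no minimum fold, a replicate block, fits of only the groups compared, and leaving out libraries. Leaving out replicate 1, 2 or 3 of all groups was chosen after seeing the data.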

Additional observations from a re-analysis of the deposited data

Results flagged for a closer look

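The F/R/C effect (MyoD with F/R/C over MyoD alone) was larger on day 10 than on day 2 for 2 members. The test was of the difference itself, and 2.24% of all genes tested were called in that direction. With libraries left out, the number of replication genes called ran from 0 to 3. For Rfc4 the log2 fold change on day 10 exceeded that on day 2 by 1.57, and for Ccne1 by 1.52.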

How the results depend on the processing

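Class levels moved by less than the spread between replicates with another prior count, RLE size factors or TPM. Of the 198 calls of members, 198 remained past the threshold with DESeq2, 198 with RLE size factors, 196 with the replicate block, 181 without the filter and 174 in fits of only the groups compared, and none of these alternatives reversed one. Counts that moved by over 1.5 times follow. Replication and mitosis calls for F/R/C on day 4 were 2 and 0 without the filter, 8 and 5 with DESeq2 and 9 and 9 with only the groups compared, and the block gave 4 mitosis calls. On days 2 and 10 only the groups compared gave 5 and 10 replication calls, and on day 10 1 mitosis call. The replicate block gave 16 mitosis calls on day 10. There, replicates 1 and 2 of both treatments deviated together (r of 0.26 and 0.25), while r in replicate 3 was 0.062. Without a minimum fold, the mean over days gave 22 replication calls. The change of the effect from day 2 to day 10 gave 1 with only the groups compared. Against MEFs, MyoD alone gave 2 replication calls on day 2 without the filter. On day 10 it gave 0 without the filter, 0 with only the groups compared and 5 without a minimum fold, and 2 mitosis calls with the block or DESeq2. F/R/C on day 2 gave 2 replication calls without a minimum fold. Bulk iMPCs gave 2 replication calls against day 10 with the block or no minimum fold. Against bulk myoblasts they gave 1 without the filter, with the block or with only the groups compared, and 4 without a minimum fold. Sorted iMPCs gave 3 mitosis calls without the filter, 12 with DESeq2 and 11 with only the groups compared against myoblasts, and 7 and 10 with DESeq2 and only the groups compared against bulk iMPCs. The cause was not tested. The block moved no other count by over 1.5 times, and all paired libraries on days 2, 4 and 6 correlated best with their own number.

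With libraries left out (fewer libraries were tested, and a group left with 2 shares the spread of the others), F/R/C calls for replication ran from 0 to 1, 0 to 4, 2 to 13, 6 to 21 and 6 to 20 on days 2, 4, 6, 8 and 10, from 13 to 20 for the mean and from 0 to 3 for the change. For mitosis they ran from 0 to 0, 0 to 1, 1 to 11, 2 to 17 and 0 to 17, from 9 to 18 for the mean and from 0 to 0 for the change. Against MEFs, replication and mitosis ran from 1 to 6 and 0 to 2 (MyoD alone, day 2), 0 to 9 and 0 to 2 (day 10), 1 to 1 and 0 to 0 (F/R/C, day 2), and 4 to 16 and 0 to 3 (day 10). Bulk iMPCs ran from 0 to 4 and 0 to 0 against day 10 and from 0 to 3 and 0 to 0 against myoblasts. Sorted iMPCs ran from 15 to 23 and 0 to 9 against sorted myoblasts and from 15 to 23 and 0 to 13 against bulk iMPCs. The majority of replication calls changed direction to 1 higher call for MyoD alone against MEFs, on day 2 without MEF replicate 1 or day 2 replicate 2, on both days without replicate 1, and for bulk iMPCs against myoblasts without myoblast replicate 3 or iMPC replicate 1. At these depths all members passed the filter on low counts.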
